A study of Mus musculus with 5 samples.

Results

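The RNA of unstimulated olfactory sensory neurons that transcribe the odorant receptor gene Olfr151, also known as M71, was described from 3 control pools, out of 5 FACS-seq pools given for the series. The pools were chosen by their labels, which give Olfr151-positive cells without odorant exposure, and exposed pools were not used. Each control pool combined cells from 4 male mice aged 7 weeks, homozygous for Olfr151tm26Mom, an allele in which the receptor coding sequence is followed by an internal ribosome entry site and a tau-GFP fusion, and the mice had been given the solvent DMSO alone for 5 h. Live nucleated GFP-positive cells (GFP+/Hoechst+/DRAQ7-) were sorted from the main olfactory epithelium. Each pool held 200 sorted cells by its sample label and the methods, although a protocol field of the labels gives 100 cells per mouse and 400 per pool. GFP is made in cells that transcribe the tagged allele, so the sort selects for 1 receptor identity, and the RNA of other receptors found in the pools is given further on. The labels place the mice of each condition on 3 consecutive days, without saying which pool belongs to which day.

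In the main olfactory epithelium, each mature sensory neuron transcribes 1 allele of 1 odorant receptor gene. An odorant that binds the receptor activates the G protein Golf, which turns on adenylyl cyclase 3, and the cAMP so made opens a cyclic nucleotide-gated channel on the cilia. Calcium entering through that channel opens a chloride channel that adds to the depolarization, and calmodulin, phosphodiesterases and ion exchangers then end the response. Neurons mature from basal stem cells through an immature stage marked by growth-associated genes, and they lie among sustentacular, gland, microvillar and immune cells.

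Counts summed to 43534590, 49527380 and 45139127 in control pools 1, 2 and 3. ERCC spike-in RNAs, which were added to the lysate, took 0.631%, 0.249% and 0.332% of them. Counts were converted to TPM, in which each gene's count is divided by its exon length and each pool is scaled to sum to 1000000, without the spike-ins. The level of a gene at 3 counts, taken as the detection limit, was 0.0607 to 0.0693 CPM (counts scaled to 1000000 without regard to length), or 0.110 to 0.113 TPM for a gene with 2000 bases of exons. The reads carry no molecular identifiers, so this limit covers counting error alone. All levels below are TPM, each ± is an SD over the 3 pools, and as there is a single condition, no test was made. The pools did not stand equally apart from each other. Pool 1 held most of the immune and red blood cell RNA, short and long transcripts were weighted differently in pools 1 and 2, and a set of transcripts with very GC-rich stretches was low in pool 3, as described further on.

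The sorted cells carried the markers of mature olfactory sensory neurons. Omp, the olfactory marker protein of mature neurons, stood at 25032, 25366 and 27095 TPM in pools 1, 2 and 3. Cnga2, the main subunit of the cyclic nucleotide-gated channel, was at 5666, 6936 and 5772 TPM. Adcy3, the adenylyl cyclase of the cilia, was at 2776, 4319 and 3331 TPM. These markers were therefore high in every pool, and the same held for Gnal, the alpha subunit of Golf, at 2512 ± 551 TPM (n = 3). All 15 genes of the mature neuron list reached 1 TPM in each pool, and together they held 8.16% ± 0.468 of TPM (n = 3). The 12 immature neuron genes held 0.170% ± 0.00932. Gap43, the growth-associated protein of immature neurons, was at 225, 190 and 236 TPM, so that Omp exceeded it 120 ± 11.9-fold on this per-length scale (n = 3).

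The labelled receptor was among the 100 most abundant genes of each pool. Olfr151 (GRCm38 chr9:37722960-37733183, minus strand, 8321 exonic bases in 4 exon entries) was at 1243, 1327 and 1499 TPM and took ranks 85, 74 and 65. GENCODE lists it as a polymorphic pseudogene, which is why it is not counted with the protein-coding genes below. The IRES-tau-GFP reporter, counted as a sequence of its own with 2554 bases, was at 399, 398 and 506 TPM. Receptor and reporter are parts of 1 transcript in this line, and the level per length of Olfr151 was 3.14 ± 0.184 times that of the reporter (n = 3), a ratio that differed little between pools.

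A few genes held a large share of the RNA. The most abundant gene of a pool held 3.42% ± 0.437 of TPM, the 10 most abundant held 16.0% ± 0.933 and the 100 most abundant held 36.0% ± 1.18 (n = 3). To reach 50% of TPM, 304, 368 and 318 genes were needed in pools 1, 2 and 3, and to reach 90% between 3898 and 4205. Genes at 1000 TPM or more, which numbered 102, 99 and 99, held 36.0% ± 1.30, and the 1557 to 1656 genes between 100 and 1000 TPM held a further 39.5% to 40.8%. At the other end, 5310 to 6337 genes lay between 1 and 10 TPM and held 2.28% ± 0.164.

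Of 55412 rows without spike-ins, 24458 had a count in some pool. A level of 1 TPM was reached by 12981, 13401 and 14075 genes, by 11137 in all pools and by 16419 in any. The 11137 shared genes held at least 98.7% of the TPM of each pool. A further 3518 genes reached 1 TPM in a single pool, 901 in pool 1, 965 in pool 2 and 1652 in pool 3.

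S100a5, a calcium-binding protein of the S100 family known for its dependence on neuronal activity in this tissue, had the highest mean, with 34949, 23945 and 38072 TPM. Stoml3, a stomatin-like membrane protein of the olfactory cilia, was at 26233, 29450 and 26377 TPM, and was the highest gene of pool 2. The ranges of S100a5, Stoml3 and Omp overlapped, so the order of these 3 genes is not fixed beyond the spread between pools. It also depends on the per-length scale, since S100a5 has 432 exonic bases. In counts, S100a5 had 203937, 140794 and 219256, below Stoml3 with 761842, 861795 and 755995 and Omp with 724949, 740214 and 774399. Gfy, a Golgi protein of olfactory sensory neurons, followed with 16999 ± 2162 TPM and Stom, stomatin, with 15124 ± 1583 TPM (n = 3). Their ranges overlapped, but Gfy was above Stom within each pool and they took ranks 4 and 5 in all 3. Calm2, a calmodulin gene, was at 8923 ± 875 TPM (n = 3), while Calm3, which encodes the same protein, was at 368, 390 and 499 TPM.

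Other genes among the 20 highest were of varied function. Tmsb4x, which binds actin monomers, was at 8571 ± 2157 TPM, and Ckb, the creatine kinase of brain, at 6124 ± 342 TPM. Nqo1, a quinone reductase used as a marker of dorsal olfactory neurons, was at 5543 ± 432 TPM. Chga, chromogranin A of secretory granules, was at 5152 ± 310 TPM, Aplp1, of the amyloid precursor family, at 5362 ± 506 TPM, and Nsg1, a neuronal endosome protein, at 4850 ± 130 TPM. Plekhb1, a pleckstrin homology protein, was at 5512 ± 196 TPM and Pcp4l1, a relative of the calmodulin regulator Pcp4, at 4662 ± 436 TPM (n = 3 for each). The mitochondrial genes mt-Cytb, mt-Nd1 and mt-Rnr2 and the channel gene Cnga2 were also among the 20. Gnb1, a beta subunit of heterotrimeric G proteins, differed most between pools among the genes described here, with 6323, 6625 and 1533 TPM, followed by mt-Rnr2 with 6472, 2681 and 3418 TPM.

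**Figure D1:**
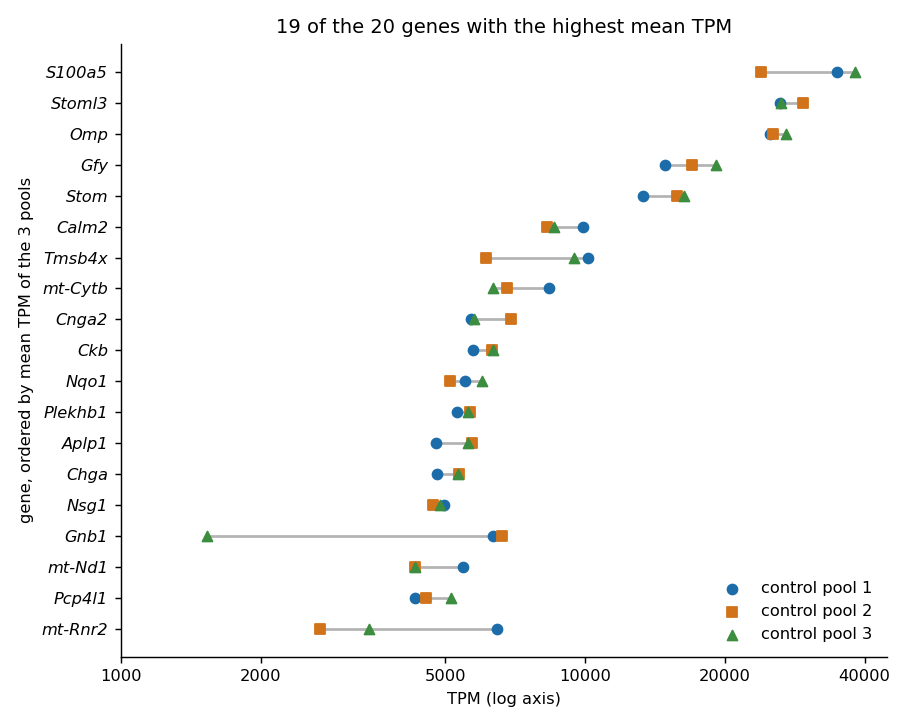
TPM (horizontal log axis) of 19 of the 20 genes with the highest mean over the 3 control pools, with a point for each pool and a grey line from the lowest to the highest. Most genes vary little between pools, whereas Gnb1 is at 1533 TPM in pool 3 and at 6323 and 6625 TPM in the others, and mt-Rnr2 is highest in pool 1.

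Promoters of the most abundant genes were searched for TCCC and GGGA with any 2 bases between them, a core of the sites bound by the Ebf (Olf-1) factors that are known from olfactory neuron genes. The search covered the RefSeq windows (build GRCm38.p6) from 250 bases before to 50 bases after each start, and the motif reads alike on both strands. It was present for 192 of the 16513 protein-coding genes with a window, or 1.16%, and for 5 of the 73 with a window among the 100 most abundant protein-coding genes, or 6.85%. A window for any of the starts of a gene was counted, and 2678 genes have more than 1. The other 27 of these 100 genes have no window here, Omp among them. Stretches of 60 bases around the motif are shown for these genes because they show the same letters in genes that rank near the top in these neurons. The motif is in capitals, and sequences read 5′ to 3′ on the strand of the gene.
Gfy: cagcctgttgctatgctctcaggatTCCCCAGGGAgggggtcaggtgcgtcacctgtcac
Acsm4: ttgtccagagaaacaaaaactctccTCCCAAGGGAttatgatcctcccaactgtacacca
Acbd7: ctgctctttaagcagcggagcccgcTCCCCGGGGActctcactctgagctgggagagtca
Cmip: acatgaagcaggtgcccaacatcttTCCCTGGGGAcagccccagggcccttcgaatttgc
BC049352: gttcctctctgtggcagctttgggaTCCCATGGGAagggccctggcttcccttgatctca

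The stretch of Gfy is chr7:45179605-45179664 on the minus strand, with the motif starting 42 bases before the transcription start. Those of Acsm4 (chr7:119689983-119690042), Acbd7 (chr2:3336128-3336187), Cmip (chr8:117348990-117349049) and BC049352 (chr9:45195543-45195602) lie on the plus strand, with the motif starting 18, 15, 155 and 198 bases before the start. For Cmip and BC049352 the RefSeq start used is an internal one, 92.1 and 13.8 kilobases downstream of the first base that the count tables give for the gene. In these neurons Gfy was at 14829 to 19152 TPM and Acsm4, an acyl-CoA synthetase of dorsal olfactory neurons, at 1907, 2459 and 2203 TPM. Among the 1000 most abundant protein-coding genes, 14 of 798 with a window held the motif (1.75%), and among those under 1 TPM in every pool 69 of 6857 (1.01%). A second motif, TAATTA, a core of homeodomain sites that also reads alike on both strands, was found for 5.31% of all protein-coding genes with a window and for 3 of the 73. These matches describe letters in a window, and binding was not measured.

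Genes of the olfactory transduction cascade held the largest share among the lists described, 8.33%, 9.38% and 8.42% of TPM in pools 1, 2 and 3. Stoml3 and Omp, which lead the mature neuron list too, held 5.32% ± 0.179, and the other 22 genes held 3.39% ± 0.447 (n = 3). Of the 24 genes, 21 reached 1 TPM in every pool and 17 had a mean of 100 TPM or more. Among the channel subunits, Cnga2 was 1.72 ± 0.0885 times as high as Cnga4 and 11.1 ± 1.83 times as high as Cngb1 on the per-length scale (n = 3). Gng13, the gamma subunit that partners Golf, was at 3702, 2194 and 3728 TPM. Ano2, the calcium-activated chloride channel, was at 1341, 1756 and 1406 TPM. Slc12a2, the cotransporter that loads chloride into the cell, was far lower, at 238 and 166 TPM in pools 1 and 2 and at 46.8 TPM in pool 3.

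Genes that help to end the response covered a wide range of levels. Pde4a and Pde1c, phosphodiesterases that break down cAMP, were at 635 ± 106 and 309 ± 58.1 TPM. Slc24a4, the exchanger that removes calcium from the cilia, was at 193 ± 57.8 TPM. Arrb2, an arrestin of receptor desensitization, was at 53.5 ± 10.2 TPM (n = 3 for each). Camk2b, Atp2b2 and Grk3, of the same list, were under 2 TPM in every pool, and Grk3, a receptor kinase, had 4, 1 and 0 counts, close to the detection limit.

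Receptor trafficking genes held 0.565%, 0.726% and 0.712% of TPM, and all 10 reached 1 TPM in every pool. Rtp1 and Rtp2, which carry odorant receptors to the cell surface, were at 2088 ± 255 and 1821 ± 226 TPM, a ratio of 1.15 ± 0.0590 (n = 3). Ric8b, an exchange factor for Golf, was at 2007 ± 397 TPM. Atf5, a transcription factor of the stress pathway that follows receptor choice, was at 221, 206 and 331 TPM.

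Among 31 transcription factors of olfactory neuron identity, 23 reached 1 TPM in every pool, and together they held 0.272% ± 0.0303 of TPM (n = 3). Ebf2 led with 560, 664 and 578 TPM, which was 5.30 ± 0.419 times the level of Ebf1 (n = 3). Uncx was at 260, 345 and 321 TPM and Tshz2 at 222, 291 and 283 TPM. Lhx2, a LIM homeodomain factor required for these neurons, was at 275, 361 and 92 TPM and was thus low in pool 3. Nfia, Nfib and Nfix, factors of ventral zones, were each under 6 TPM in every pool. The dorsal gene Nqo1 exceeded Nfix 1910 ± 667-fold, and Ncam2, an adhesion molecule of ventral neurons, was at 1.22, 2.02 and 1.66 TPM.

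Calcium-binding proteins held 6.19%, 4.87% and 6.52% of TPM, of which S100a5, at 23945 to 38072 TPM, was a large part. S100a5 has 432 exonic bases, and as a share of counts the list held 2.86%, 2.27% and 2.83%. The list was lowest in pool 2, as S100a5 itself was. Calb2, calretinin, was at 305, 125 and 165 TPM. S100a10 varied most in this list, at 3.66, 2.73 and 28.9 TPM.

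Activity-dependent and immediate early genes were present in the unexposed neurons. Hist2h2be, a histone variant whose level depends on activity, was at 510, 485 and 568 TPM. Kirrel2, an adhesion molecule whose level also depends on activity, was at 834, 846 and 1022 TPM. Of 17 immediate early genes, 12 reached 1 TPM in every pool, and they held 0.242% ± 0.0148 of TPM (n = 3). Ier2 was at 491, 529 and 601 TPM, Jun at 423, 617 and 523 TPM, and Fos at 434, 453 and 342 TPM, so these genes were abundant in each pool. By the paper's methods, the tissue was digested with papain and the cells were stained, both in warm incubations, before lysis. Which part of the immediate early RNA was present before this handling was not tested. Egr1 was at 122, 91.1 and 91.2 TPM. Arc was at 7.43, 1.75 and 32.4 TPM and Nr4a2 at 0.930, 0.0362 and 28.3 TPM. Egr3, at 0.0504, 0 and 10.4 TPM, was also highest in pool 3, whereas Npas4 was under 0.6 TPM in every pool.

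Nuclear genes of the respiratory chain held 4.07%, 2.82% and 3.60% of TPM, and 65 of 84 had a mean of 100 TPM or more. Atp5b, the catalytic subunit of ATP synthase, was among the most even genes at 2057 ± 15.6 TPM (n = 3). The small subunits varied more: Cox6a1, with 702 exonic bases, was at 2250, 1411 and 2099 TPM. The mitochondrially encoded mRNAs held 2.18%, 1.81% and 1.72%, led by mt-Cytb with 8347, 6778 and 6348 TPM. As a share of counts, the nuclear genes held 2.08%, 1.43% and 1.79%, and the mitochondrially encoded mRNAs 0.786%, 0.582% and 0.584%. Of these 13 genes, mt-Co2, mt-Co3, mt-Atp6, mt-Atp8 and mt-Nd4l are listed at 0 in every pool. Reads with more than 1 mapping place were not counted by the authors, so the values of mitochondrial genes and of genes with near-identical copies may be too low.

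Glycolytic genes held 0.531% ± 0.0274 of TPM (n = 3). Aldoa, an aldolase, was at 1545, 1695 and 1498 TPM, which was 80.6 ± 13.5 times the level of Aldoc. Ldhb, the lactate dehydrogenase subunit of oxidative tissues, exceeded Ldha 30.2 ± 1.45-fold (n = 3). Only uniquely mapped reads were counted, so both ratios also depend on any copies of these genes in the genome, which were not examined. Gapdh and Pgk1, which have many processed copies in the genome, were at 57.1 ± 2.49 and 4.13 ± 0.740 TPM.

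Ribosomal protein genes held 0.373%, 0.224% and 0.310% of TPM, less than the mitoribosomal protein genes with 0.609%, 0.446% and 0.495%. Both are families of 78 genes, and those of the cytosolic ribosome have many pseudogenes that share their reads. Rpl8 was at 407, 258 and 337 TPM. Translation factors were even between pools, at 0.618% ± 0.00456, and genes of the vacuolar proton pump held 0.406% ± 0.00489 (n = 3 for each). Proteasome genes held 0.754% ± 0.0588, with Psmc5, a proteasome ATPase, at 970, 912 and 952 TPM. Antioxidant genes held 0.883% ± 0.0622, mostly through Nqo1, and of the others Fth1, ferritin heavy chain, was at 880, 714 and 922 TPM.

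**Figure D2:**
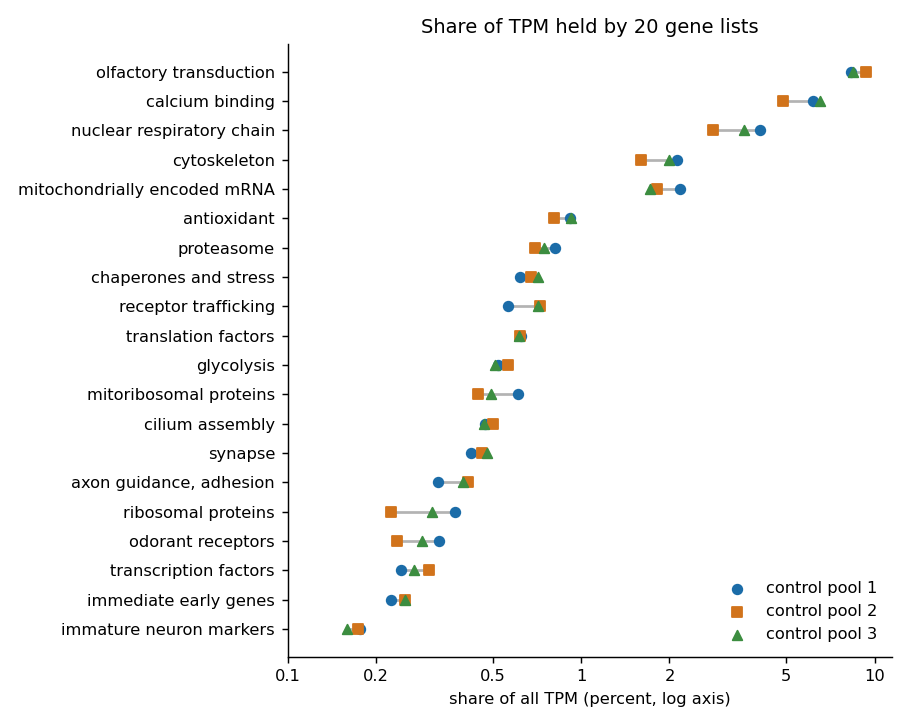
Share of TPM (percent, horizontal log axis) of 20 gene lists, with a point for each control pool and a grey line from the lowest to the highest. Olfactory transduction is highest in each pool, and the nuclear respiratory chain (2.82% in pool 2 and 4.07% in pool 1) spreads more than the translation factors.

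Genes of the cilium, the axon and the synapse were present at moderate levels. Of 44 cilium assembly genes, 43 reached 1 TPM in every pool, and they held 0.480% ± 0.0174 of TPM (n = 3). Ift43, of the intraflagellar transport complex, was at 563, 457 and 471 TPM. Axon guidance and adhesion genes held 0.327%, 0.413% and 0.395%. Efna3, a guidance ligand, was at 454, 634 and 674 TPM and Ncam1, the neural cell adhesion molecule, at 494, 607 and 648 TPM. Cdh13 and Dcc, of the same list, had no count in any pool.

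The synaptic list held 0.452% ± 0.0291 of TPM (n = 3). Slc17a6, the vesicular glutamate transporter of these neurons, was at 350, 410 and 378 TPM and exceeded Slc17a7 619 ± 140-fold, the latter being under 1 TPM in every pool. Rab3a, of synaptic vesicle release, was at 588, 554 and 676 TPM. Syn2, a synapsin, was at 121 and 115 TPM in pools 1 and 2 and at 17.7 TPM in pool 3. Receptors for other modulators were few: of 24, 6 reached 1 TPM in every pool and 10 had no count in any. Adipor1, the adiponectin receptor, was at 1962, 1945 and 2091 TPM, and Drd2, the dopamine receptor of the axon terminals, at 90.4, 189 and 84.3 TPM.

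Odorant receptor genes as a family, 1407 in all with pseudogenes, held 0.327%, 0.235% and 0.288% of TPM. Olfr151 made up 1243 to 1499 TPM of this, and all other receptor genes together summed to 2026, 1024 and 1380 TPM. The balance depends on the scale, since Olfr151 is counted over 8321 bases: it was 38.0%, 56.4% and 52.1% of receptor TPM but 62.2%, 82.9% and 73.1% of receptor counts, so the other receptors exceeded it in TPM in pool 1 and were below it in counts in every pool. Between 1233 and 1279 of the other genes had no count in a pool. Those with 10 TPM or more numbered 17, 10 and 15, and of the 38 genes that reached 10 TPM in some pool, 35 did so in 1 pool, 2 in a pair of pools and 1 in all 3. The last was Olfr160, also known as M72, the closest relative of Olfr151, at 11.3, 12.3 and 13.1 TPM, and reads of such close copies may be assigned wrongly. Of the other genes, 3 reached 1 TPM in all pools, Olfr160 with Olfr138 and Olfr549.

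The most abundant of the other receptors were large in 1 or a pair of pools and close to absent elsewhere. Olfr957 had 11925, 25 and 0 counts, or 511, 1.06 and 0 TPM. Olfr557 had 11624, 39 and 0 counts and Olfr424 had 1, 10645 and 0. Olfr622 was at 150, 0 and 174 TPM and Olfr446 at 126, 0 and 94.3 TPM. Taar2, a trace amine-associated receptor, had no count in pools 1 and 2 and 7497 counts in pool 3, or 551 TPM. Of 17 genes that reached 100 TPM in some pool with 3 counts or fewer in another, 15 were odorant receptor genes, and the others were Taar2 and Ccl17, a chemokine. The 3 pools therefore had Olfr151 in common and little else of the receptor family.

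**Figure D3:**
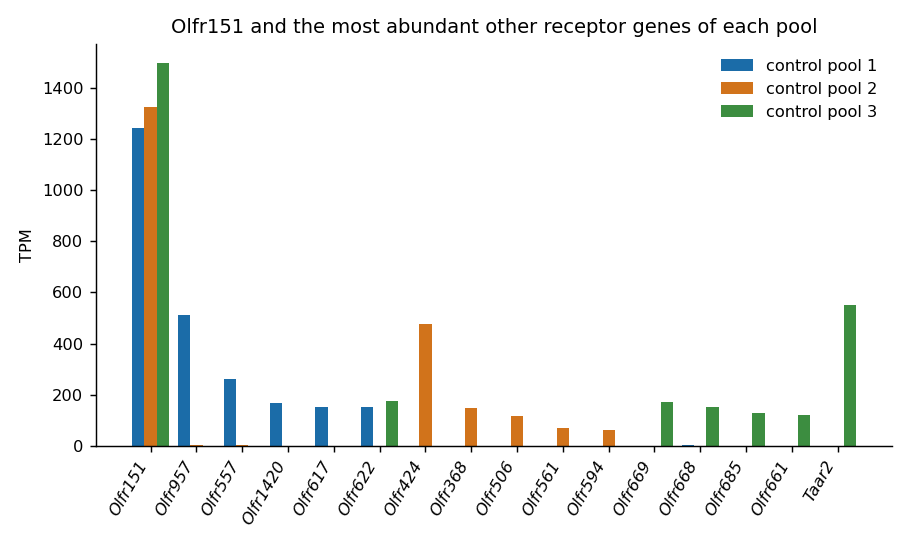
TPM (vertical axis, from 0) of Olfr151, of the 5 other odorant receptor genes highest in each control pool and of Taar2, with a bar for each pool. Olfr151 is between 1243 and 1499 TPM in every pool, whereas each other gene is high in 1 pool or, for Olfr622, in pools 1 and 3.

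RNA of other cells was low but unequal. In pooled cells, fewer cells of a type and less RNA per cell cannot be told apart. The 16 immune markers summed to 839, 95.3 and 61.5 TPM, of which Cd74, the invariant chain of antigen presentation, made up 437, 27.2 and 9.87 TPM. Ptprc, which marks all leukocytes, was at 0, 0.217 and 0.0041 TPM, and Cd3e and Cd79a, of T and B cells, were close to 0, whereas Csf1r and Adgre1, of macrophages, were at 11.1 and 13.4 TPM in pool 1 and at 0 in the others. Of the 16, 5 reached 1 TPM in every pool.

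The 7 red blood cell markers summed to 1454, 507 and 57.3 TPM. Hbb-bs, a beta globin, was the most abundant at 932, 323 and 37.6 TPM, and Slc4a1, of the red cell membrane, had no count. The 14 sustentacular markers summed to 952, 895 and 358 TPM, led by Cbr2 with 215, 146 and 79.6 TPM, and Ugt2a1 was at or under 0.0286 TPM. Gland and secreted genes, 11 in all, summed to 376, 1118 and 197 TPM, most of it Scgb1c1 with 197, 840 and 143 TPM, while Bpifb5 and Muc5ac had no count. So pool 3 was lowest for these 4 lists, and pool 1 was highest for all but the gland genes.

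The 8 microvillar markers summed to 16.5, 314 and 78.3 TPM and were divided between pools. Coch, which encodes cochlin, made up most of the sums of pools 1 and 2, at 16.5, 255 and 23.6 TPM. Ascl3 and Foxi1, transcription factors of ionocyte-like microvillar cells, were at 26.8 and 26.2 TPM in pool 2 and at 0 in the others, as was Cftr at 2.40 TPM. Il25, a cytokine of tuft-like microvillar cells, was at 34.4 TPM in pool 3 and at 0 in the others, and Trpm5 was at 14.5 TPM there. The 7 fibroblast markers summed to 7.52, 10.5 and 64.6 TPM, with Col1a1 at 1.06, 1.39 and 28.3 TPM. Horizontal basal markers, 6 in all, summed to 5.30, 1.66 and 11.9 TPM, led by Cav1 with 0.150, 0 and 8.10 TPM, and the 6 endothelial markers to 4.50, 1.71 and 4.26 TPM. Neurod1, Kdr and Cdh5 had no count, and Krt5 and Krt14 were under 3 TPM in every pool. The 12 globose basal cell and progenitor markers summed to 58.8, 72.7 and 58.7 TPM, most of it Hes6 with 57.9, 67.2 and 57.5 TPM. The 9 glial markers summed to 35.3, 35.9 and 25 TPM, led by Mbp with 12.1, 18.7 and 11.9 TPM. The part of these cells in the differences between pools was not tested.

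Markers of ciliated respiratory cells were mixed. The 7 genes summed to 879, 704 and 923 TPM, and 5 of them reached 1 TPM in every pool. Dynlrb2 was at 579, 453 and 551 TPM and Foxj1 at 81.4, 115 and 127 TPM, while Dnah5, of motile cilia, and Scgb1a1, of secretory airway cells, had no count. Of the 10 vomeronasal markers, Trpc2 had no count and Gnao1 was at 64.7, 102 and 94.8 TPM. Y-linked genes were present in each pool, as with Eif2s3y at 25.3, 34.7 and 27.1 TPM, and Xist was under 0.01 TPM.

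**Figure D4:**
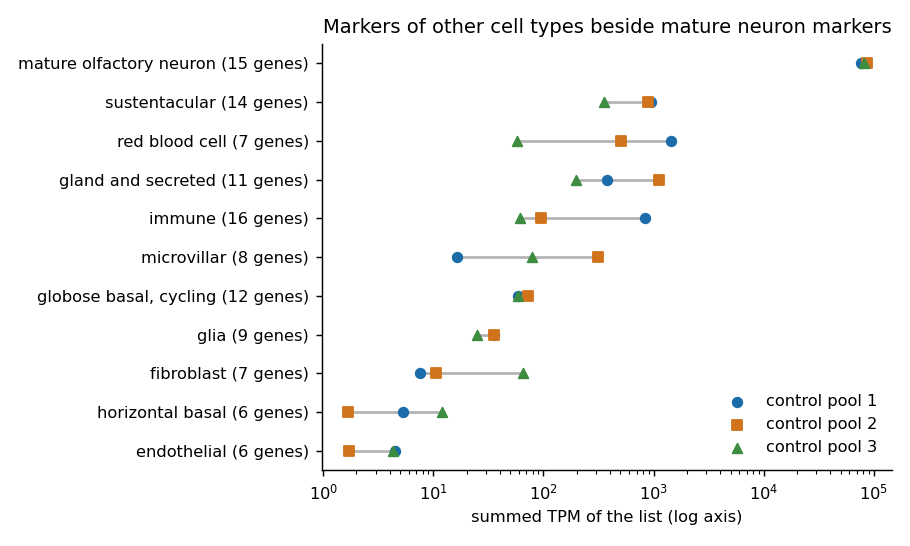
Summed TPM (horizontal log axis) of marker lists for 10 other cell types and for mature olfactory neurons, with a point for each control pool. Mature neuron markers exceed the other lists in every pool, and immune markers run from 61.5 TPM in pool 3 to 839 TPM in pool 1.

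By annotation class, protein-coding genes held 94.7%, 96.4% and 95.7% of TPM. Antisense genes held 0.704% ± 0.0322, processed pseudogenes 0.678% ± 0.173 and lincRNAs 0.545% ± 0.00495 (n = 3 for each). Reads were counted without strand, so the reads of an antisense gene cannot be told from those of the genes it overlaps. Tmem74bos was the highest antisense gene, with 1357, 1611 and 1533 TPM, and Gm26917 the highest entry annotated as lincRNA, with 958, 1089 and 898 TPM. Gm26917 (chr17:39843013-39846341) lies directly beside the rRNA entry CT010467.1 (chr17:39846353-39848827), and whether its reads are ribosomal was not tested. Malat1, a nuclear RNA, was at 198, 196 and 275 TPM.

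Ribosomal RNA was highest in pool 1. The mitochondrial rRNAs held 0.929%, 0.305% and 0.398% of TPM, with mt-Rnr1 at 2817, 373 and 563 TPM. The rRNA class held 0.449%, 0.0779% and 0.114%, most of it CT010467.1 with 4286, 629 and 929 TPM. Genes annotated as miRNA held 0.889%, 0.497% and 0.502%. Gm23935, an entry of 57 bases, was at 4558, 2186 and 3842 TPM from 3509, 1696 and 2919 counts, and Mir6236, of 123 bases, at 4019, 2456 and 860 TPM, so that such short entries gained high TPM from few counts.

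Across the 24458 genes with a count, Spearman's rho between pools was 0.848 for pools 1 and 2, 0.817 for pools 1 and 3 and 0.837 for pools 2 and 3. These correlations are across genes, which are not independent replicates, and each pair shares base composition and gene length. Of the 100 most abundant genes, 86 were common to all pools, and 406 of the top 500 and 827 of the top 1000 were. Among 7898 genes with a mean of 10 TPM or more, the median coefficient of variation (SD over mean) was 19.9%. It fell with level, from 22.2% for means between 10 and 100 TPM to 14.5% between 100 and 1000 TPM and 12.5% from 1000 TPM. Without pool 1 the median for means of 10 TPM or more was 12.9%, and after scaling by spike-in counts it was 46%.

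The spike-ins gave a measure of the spread to which the cells do not contribute. At a mean of 1000 to 10000 counts, 8 spike-ins had a median coefficient of variation of 17.3% after scaling to their own total, and 5690 genes had one of 19.0%. At 10000 to 100000 counts the values were 12.0% for 5 spike-ins and 11.9% for 744 genes, and at 100 to 1000 counts 27.1% for 16 spike-ins and 37.3% for 4572 genes. The values rest on few spike-ins and are medians, so they do not say which part of the spread of a gene is technical.

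Among genes with a mean of 100 TPM or more, those most alike in the pools were Pdia3, an endoplasmic reticulum chaperone, with 714, 710 and 713 TPM, Ndfip1, an adaptor of ubiquitin ligases, with 741, 732 and 736 TPM, and Cmtm6 with 107, 106 and 107 TPM. Their coefficients of variation were 0.294%, 0.598% and 0.629%. Atp5b, Dld, Trarg1, Paip2, Scamp1, Yif1a and Ssbp2 completed the 10 lowest, all at 1.27% or less.

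More than a 4-fold gap between the highest and the lowest pool was found for 452 of the 7898 genes, or 5.72%. The lowest pool was pool 3 for 301 of them, pool 1 for 79 and pool 2 for 72. Without pool 3 there were 157 such genes, and without pool 1 there were 257. Among genes at 100 TPM or more in some pool, the 10 with the largest gap were 9 odorant receptor genes and Taar2. Chosen after their values were seen, the largest gaps outside receptor genes were those of immune genes high in pool 1. Ccl17 was at 238 TPM in pool 1 and at 0 in the others, and Il1b, an inflammatory cytokine, was at 134, 0.424 and 1.38 TPM. Ctss, a lysosomal protease of antigen-presenting cells, was at 108, 9.04 and 0.442 TPM and H2-Eb1, a class II histocompatibility gene, at 157, 4.23 and 0.733 TPM. They were followed by Actc1, cardiac actin, which was at 0.778, 0.590 and 104 TPM and thus high in pool 3.

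Differences between pools moved with exon length. For 7455 protein-coding genes with a mean of 10 TPM or more, each pool was set against the mean of the other pools on a log2 scale with 0.1 TPM added. The 185 genes under 1000 bases had a median of 0.38 in pool 1, -0.55 in pool 2 and 0.03 in pool 3. The 2158 genes of 6000 bases or more had -0.31, 0.26 and 0.01. Pools 1 and 2 thus lay on opposite sides and pool 3 between them. Since each pool was set against the others, a value near 0 places pool 3 in the middle and does not show that it has no such weighting. Nuclear respiratory chain and ribosomal protein genes were highest in pool 1 and lowest in pool 2, as was Cox6a1, and Adcy3, with 6246 exonic bases, was lowest in pool 1 and highest in pool 2. Of the 2158 longest genes 62.9% were lowest in pool 1, and 59.2% were highest in pool 2 and 26.9% in pool 3. Faim2, an inhibitor of Fas-mediated cell death with 12520 exonic bases, was highest in pool 3, at 764, 1064 and 1154 TPM, and was chosen after its values were seen. Mitochondrially encoded mRNAs, which are short too, were highest in pool 1 but lowest in pool 3. Histone genes, at 0.304%, 0.280% and 0.306% of TPM, were lowest in pool 2 and close to equal in pools 1 and 3. The part of length in these shares was not tested.

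Pool 3 differed in another feature, which was chosen after the values were seen. In 255 of the 7455 genes pool 3 was more than 4-fold below the mean of the others, against 59 genes for pool 1 and 73 for pool 2. These counts include genes that were high in a single pool, such as Ccl17. More than 4-fold below each of the other pools were 139 genes in pool 3, 20 in pool 1 and 17 in pool 2. For each gene the highest GC content of any 100-base stretch of its longest GENCODE transcript was computed. The median was 85% in the 255 genes and 73% in all 7455, and 65.1% of the 255 genes had a stretch of 80% GC or more, against 24.6% of all and 73.4% of the 139. Such a stretch was also held by 41.2% of the 85 genes more than 4-fold above the mean of the others in pool 1, and by 10.2% and 8.22% of the genes low in pools 1 and 2. GC over the whole transcript differed less, with medians of 52.4% and 49.7%. For the 632 genes with a stretch of 85% or more, the median log2 deviation was 0.15 in pool 1, 0.39 in pool 2 and -0.75 in pool 3, and 20.7% of them were more than 4-fold low in pool 3, against 2.91% of the genes between 80% and 85%. The relation was not graded over the whole range: in the lower bins the share low in pool 3 was 5.65% under 60% GC, 2.77%, 1.82% and 1.05% in the next steps of 5 points, and 0.422% between 75% and 80%. Counting only genes below each of the other pools, the share was 12.8% from 85%, 1.75% between 80% and 85%, and between 0.0703% and 1.13% in the lower bins.

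Gnb1 (chr4) was the most abundant of the 255 genes, with a highest stretch of 86% GC. Other members were Lamp1, a lysosomal membrane protein, with 1361, 1499 and 191 TPM, Siah2, a ubiquitin ligase, with 239, 264 and 27.2 TPM, and Hcn2, a cation channel gated by cyclic nucleotides, with 193, 79.7 and 5.73 TPM, all chosen after their values were seen. Syn2 (17.7 TPM in pool 3), Slc12a2 (46.8 TPM) and Kcnh3, a potassium channel with 220, 337 and 64.0 TPM, were also among them, though Slc12a2 and Kcnh3 were not more than 4-fold below each of the other pools. Lhx2, at 92 TPM in pool 3, did not pass the 4-fold limit. Not all members had such a stretch: Hbb-bs and Cd74, of blood and immune cells, had at most 66% and 65%. Why pool 3 was low for these genes was not tested.

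**Figure D5:**
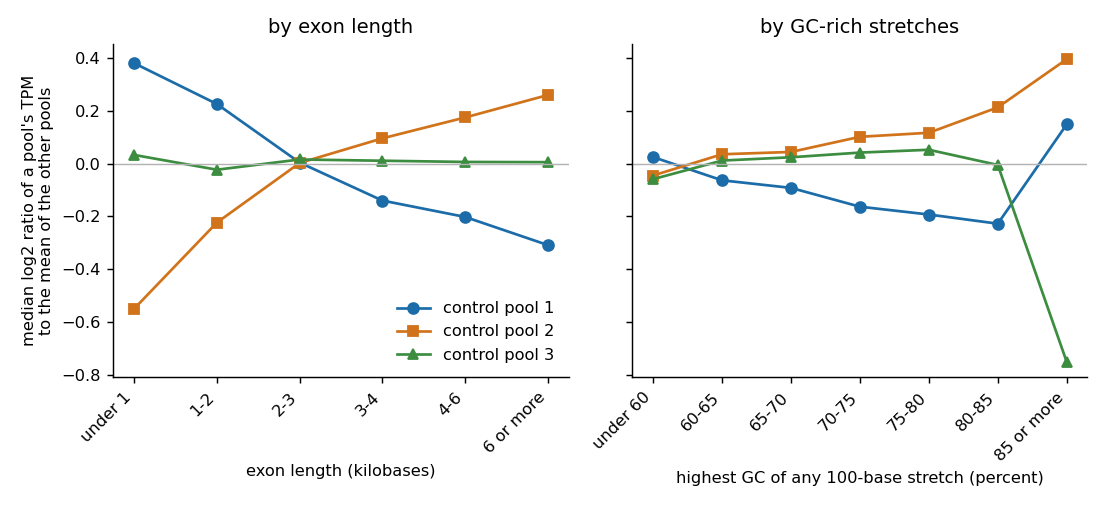
Median log2 ratio of each control pool's TPM to the mean of the other pools (vertical axis) for protein-coding genes with a mean of 10 TPM or more, by exon length (left) and by the highest GC of any 100-base stretch (right). Pools 1 and 2 run in opposite directions with length, and pool 3 falls to -0.75 in genes with a stretch of 85% GC or more.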

How the data were processed

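The cDNA was amplified with SMARTer chemistry in 12 PCR cycles and prepared with Nextera XT. Alignment by the authors used STAR 2.7.0a and GRCm38 plus the reporter sequence, and reads on exons were summed per Ensembl gene by featureCounts 1.6.3, unstranded and uniquely mapped. The deposited values are raw counts with the exon length of each gene, 1 table per pool. Control pools were taken from the labels, and exposed pools were not used. Of 55411 genes, 55144 were named through GENCODE M21, the source of transcripts for GC content.

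Counts were converted to TPM in Python 3.11.15 with pandas 2.3.3, over all rows but the 92 spike-ins. Ratios used 3 counts as the lowest value of a pool. TMM factors came from edgeR 4.0.16 and size factors from DESeq2 1.42.0. TPM and fold calculations were checked on simulated counts. With 1 condition no test was made.

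The members and lists were chosen with earlier results of these data known. Named genes were the 20 highest by mean TPM, up to 4 of the highest and the most variable of each list, any member of lists of up to 30 genes, the 10 largest and 10 smallest differences between pools among abundant genes, the 5 highest receptors of each pool, the highest genes of each annotation class, the reporter and the neuron markers. Some genes that this rule selects are not reported here. Genes outside this rule are said to be chosen after their values were seen, and the genes with the promoter motif were named by the search itself. Alternatives changed the unit, the rows, the scaling, thresholds and filters, and left out each pool in turn.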

Additional observations from a re-analysis of the deposited data

How the results depend on the processing

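Of 67 alternative values, 45 stayed close to the main value, which for shares and rho means within 1 SD between pools or pairs of pools, and for counts and the coefficient of variation within 1.5 times. Part of this tally was fixed in advance. The mean share with 1 pool left out always lies within 1 SD of the main value. At most 50 genes can be shared among the top 50, too few to come within 1.5 times of 86. The tally is therefore no measure of how stable the results are. In CPM, without length scaling, 556 ± 11.8 genes held 50% of the total instead of 330 ± 33.6. As a share of counts, mitochondrially encoded mRNAs held 0.651% instead of 1.90%, ribosomal proteins 0.147% instead of 0.302%, the nuclear respiratory chain 1.77% instead of 3.49% and odorant receptors 0.464% instead of 0.283%, which follows from leaving exon length out, while the transduction cascade held 8.30% instead of 8.71%. The genes shared among the top 50, 500 and 1000 numbered 39, 406 and 827. The mean rho of 0.834 became 0.891 for genes at 1 TPM in some pool, 0.853 in CPM, and as Pearson's r of log2 values 0.943 with 1 added and 0.881 with 0.1 added. Scaling by spike-in counts raised the median coefficient of variation from 19.9% to 46% and the genes over 4-fold apart from 452 to 1365. At over 2-fold there were 1625, at over 10-fold 156, and from a mean of 1 TPM 2824. Genes more than 4-fold low in pool 3 numbered 139 instead of 255 when set against each of the other pools. This alternative was chosen after seeing the data. It keeps out genes such as Ccl17, which was at 0 in pools 2 and 3. Not all genes high in a single pool are kept out, as Ctss was at 108, 9.04 and 0.442 TPM. With each pool left out, rho ran from 0.817 to 0.848, the coefficient from 12.9% (without pool 1) to 19.0%, and the genes over 4-fold apart from 157 (without pool 3) to 335. The depth limits values near 3 counts, and 3 pools limit each SD. No paired analysis was possible because the result comes from no test.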

Other observations

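Ion channels beyond the transduction channel included both auxiliary and pore-forming subunits among the most abundant. Of 94 potassium channel genes, 27 reached 1 TPM in every pool and 35 had no count in any. Kcnmb3, a beta subunit of the large-conductance calcium-activated channel, was at 626, 669 and 583 TPM, Kcnc4 at 444, 578 and 640 TPM and Kcnh4 at 454, 598 and 516 TPM. Of 40 sodium and calcium channel genes, 16 reached 1 TPM in every pool. Cacnb3, a beta subunit of calcium channels, was at 877, 1027 and 942 TPM. Scn9a, the sodium channel Nav1.7, was at 231, 337 and 275 TPM, and the auxiliary subunits Scn3b and Scn4b were at 326, 492 and 441 TPM and at 318, 427 and 432 TPM.

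Genes of the unfolded protein response and chaperones held 0.670% ± 0.0452 of TPM (n = 3), with all but 1 of 21 at 1 TPM or more in every pool. Hsp90ab1 was at 2574, 2608 and 2809 TPM and Hspa5, the chaperone of the endoplasmic reticulum, at 611, 727 and 765 TPM. Clock genes were low, with 12 of 16 at 1 TPM in every pool, and Cry2 was highest at 87.6, 164 and 139 TPM. Of the clustered and other protocadherins, 49 of 69 reached 1 TPM in every pool, and Pcdhb1 was at 275, 395 and 363 TPM.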
